A study of Mus musculus with 7 samples.

Results

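The hairpin mmu-mir-211 lies in an intron of Trpm1, and its 2 arms were followed in cultured mouse cardiomyocytes. Every sequenced tag was placed on all mouse miRNA hairpins by its best ungapped match with at most 2 mismatches, and the tags that fell best on mir-211 were summed by arm, start, end, day and time course. It was 1 of 604 hairpin names with at least 1 tag, and it held 20122 of 41040048 placed tags. The hairpin was chosen by its measured values in these libraries: its 3p product was known to be lower at day 4 than at day 1, and nearly all of its tags came from the arm once annotated as the star strand. Both properties are therefore given as descriptions, without a test.

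HL-1 is an immortalised line of mouse atrial cardiomyocytes that keeps the ability to contract, and all 7 small RNA libraries came from this 1 line. Cells without any other treatment were sampled after 1, 2, 3 and 4 days in culture, in 2 time courses, and the cultures passed from non-beating to mostly beating cells over this period. Time course 2 was sampled on days 1, 2, 3 and 4, and time course 1 on days 1, 3 and 4, so that day 2 has 1 library and the other days have 2 each. The libraries held between 4945093 and 6899411 tags on miRNA hairpins.

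A miRNA hairpin is cut by Drosha and Dicer into a short duplex with 1 strand from each arm. In general 1 strand is loaded into an Argonaute protein and kept while the other is degraded, and bases 2 to 8 of the loaded strand, the seed, lead the choice of target mRNAs. Trpm1 encodes melastatin, a cation channel of melanocytes and of retinal bipolar cells, and miR-211 is best known from melanocytes and melanoma. The 5p product of mir-211 has a close relative in miR-204-5p, whose hairpin lies in Trpm3.

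The mature products of both hairpins are shown first because the strand used decides which seed is present. The sequences are those of RefSeq on GRCm38.p6, the capitals mark the seed, and all 4 products were matched by name.
mmu-miR-211-3p: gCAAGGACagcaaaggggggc
mmu-miR-204-3p: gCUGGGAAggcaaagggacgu
mmu-miR-211-5p: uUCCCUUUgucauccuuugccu
mmu-miR-204-5p: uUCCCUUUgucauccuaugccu

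The whole hairpin is shown next, with the 2 mature products in capitals, because the text refers to positions along it counted from 1 at its 5′ end.
mir-211 hairpin: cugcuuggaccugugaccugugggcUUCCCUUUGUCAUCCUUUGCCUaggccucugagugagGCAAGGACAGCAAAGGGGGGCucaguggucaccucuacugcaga

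The hairpin occupies chr7:64205806-64205911 on the plus strand of GRCm38.p6. It lies in intron 6 of Trpm1 (chr7:64153835-64269775, same strand) in the transcripts with 27 exons, where that intron is 3682 nt long. No exon or UTR of these transcripts overlaps it. miR-211-5p covers chr7:64205831-64205852 and miR-211-3p covers chr7:64205868-64205888. The mir-204 hairpin lies at chr19:22750605-22750672 on the plus strand, in an intron of Trpm3.

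The arms of mir-211 differ in composition and in kinship. miR-211-5p begins with U and is 45.5% G and C, while miR-211-3p begins with G and is 66.7% G and C. Set against miR-204-5p, miR-211-5p differs at 1 of 22 positions (U17A, with the base of miR-211 first and positions counted from the 5′ end of the product), outside the seed. The 3p products differ at 7 of 21 positions (A3U, A4G, C8A, A9G, G18A, G19C and C21U), 3 of them within the seed. The seed CAAGGAC of miR-211-3p occurred in 1 of 1679 mature mouse miRNAs of RefSeq, which was miR-211-3p itself, whereas the seed UCCCUUU of miR-211-5p was shared by miR-204-5p and miR-7670-3p. The use of the 3p arm thus sets which of these seeds the mir-211 tags carried.

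Of the 20122 tags of the hairpin, 19959 came from the 3p arm and 163 from the 5p arm, flanking tags on each side of the hairpin included. Of the 163 tags of the 5p arm, 143 started within 3 nt of the start of miR-211-5p and 20 further upstream. The 3p arm gave 99.7%, 99.2%, 98.2% and 98.6% of the tags of the hairpin on days 1, 2, 3 and 4 of time course 2. It gave 99.5%, 98.4% and 97.1% on days 1, 3 and 4 of time course 1. The 3p share thus exceeded 97% in each of the 7 libraries (98.7% ± 0.890, SD, n = 7), and the lowest lower bound of the 95% Wilson intervals was 96.0%, on day 4 of time course 1. These intervals and those given later cover counting error only, since PCR copies were not told apart.

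The ratio of 3p to 5p tags differed more between days than the share shows. It was 350, 117, 55.7 and 68.6 on days 1 to 4 of time course 2, and 210 and 33.7 on days 1 and 4 of time course 1, where day 3 had 1140 tags of the 3p arm against 19 of the 5p arm. The ratio was lower in both day 4 libraries than in both day 1 libraries, and only 17 to 35 tags of the 5p arm in a library stood behind it. With only the tags that start within 3 nt of the annotated starts, it was 72.2 (time course 2) and 40.4 (time course 1) on day 4, against 369 and 248 on day 1.

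**Figure D1:**
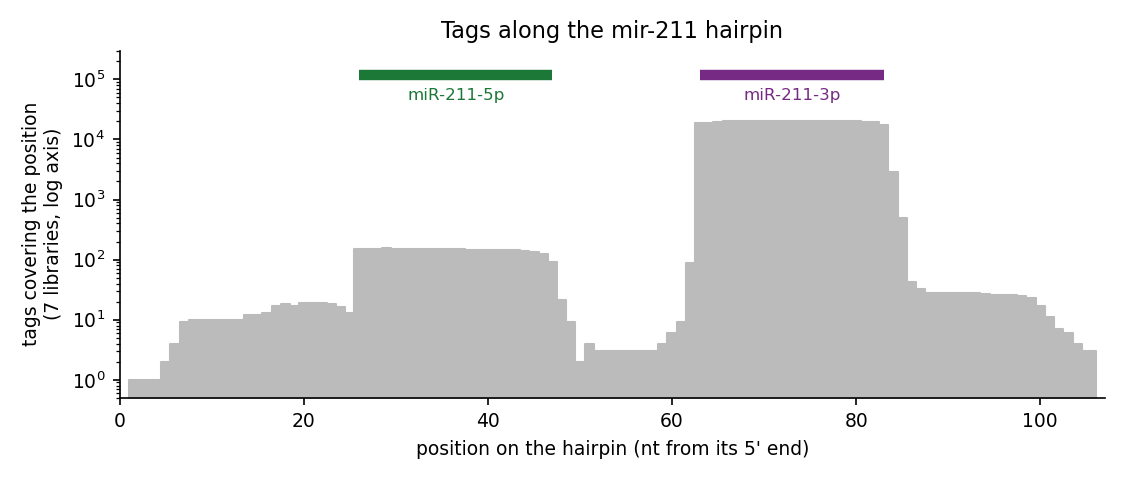
Number of tags, summed over 7 libraries and on a log axis, that cover each position of the mir-211 hairpin in nt from its 5′ end, with bars for the annotated products. The 19959 tags of the 3p arm form 1 sharply bounded block, the 163 tags of the 5p arm a lower one, and few tags lie in the loop and the flanks.

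In the 321 hairpins with at least 150 tags, the arm with more tags held a median of 89.9% of the tags. 42 of these hairpins were more one-sided than mir-211, and 46 had over 99% of their tags on 1 arm. The arm that dominates was opposite in the relative: mir-204 had 979 tags, of which 3.37% came from its 3p arm (3.27% ± 2.26, SD, n = 7). The plot of arm use by tag number shows the 2 hairpins at opposite ends of the scale.

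**Figure D2:**
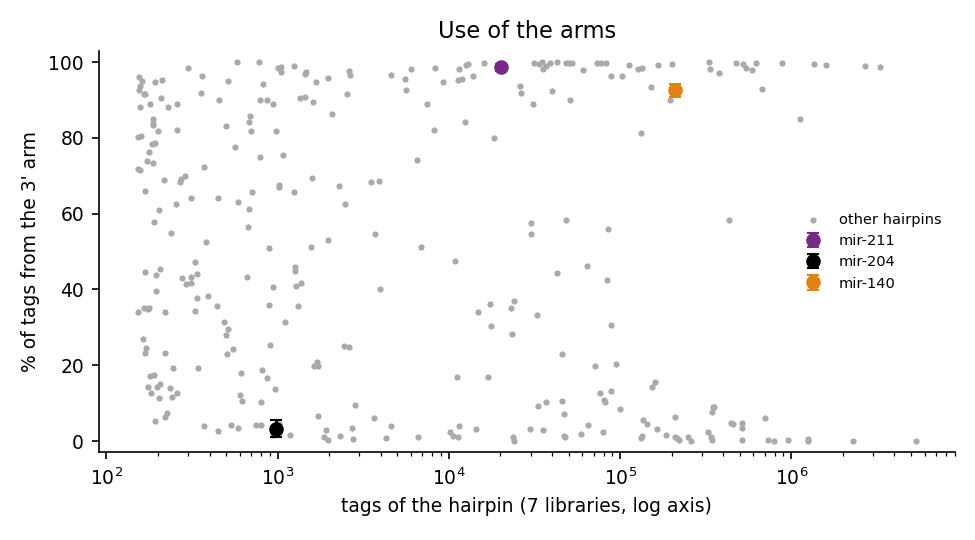
Percentage of tags from the 3p arm against the number of tags of the hairpin (log axis) for the 321 hairpins with at least 150 tags, with mean and SD over 7 libraries for the 3 coloured hairpins. mir-211 (98.7%) and mir-140 (92.6%) lie near the top, and mir-204 (3.27%) near the bottom.

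The study named 11 hairpins, from these same libraries, as having over 80% of their tags on the star strand, and mir-211 was the most one-sided of the 10 that held at least 150 tags here. mir-140, which is prominent in cartilage, had 92.6% ± 1.68 of its tags on the 3p arm (SD, n = 7). mir-1943 was next to mir-211 with 94.0% ± 2.67, and mir-877, mir-674, mir-3074, mir-330 and mir-879 had means between 80.9% and 90.7%. In mir-147 the 3p arm held 13.8% ± 7.56, so that its 5p arm dominated. mir-463 had 49.5% ± 18.6 on the 3p arm and did not exceed 80% on either arm here. The study showed strand bias for tags near the expected starts, whereas all tags of each arm are counted here, so the shares are not strictly alike. The list was chosen for this property, so its values describe where mir-211 stands in it and give no separate evidence.

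miR-211-3p was lower in the later libraries of both time courses. Levels are given in CPM, the tags of a product divided by all tags of the library and multiplied by 1000000. miR-211-3p had 1065, 647, 163 and 189 CPM in time course 2 on days 1, 2, 3 and 4, from 6645, 3285, 947 and 1304 tags. In time course 1 it had 799, 211.3 and 239 CPM on days 1, 3 and 4, from 5457, 1140 and 1181 tags. All 4 libraries of days 3 and 4 lay below the day 2 library and both day 1 libraries, without overlap.

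Day 4 averaged 214 ± 35.2 CPM and day 1 averaged 932 ± 188 (SD, n = 2 each). The log2 fold of day 4 over day 1 was -2.49 in time course 2, a level 5.64-fold lower, and -1.74 in time course 1, a level 3.34-fold lower. Between day 2 and day 1 of time course 2 the log2 fold was -0.72, so that most of the difference lay between days 2 and 3. Day 4 was slightly above day 3, with a log2 fold of 0.21 in time course 2 (95% counting interval 0.09 to 0.33) and 0.18 in time course 1 (0.06 to 0.29). The lowest measured level was thus that of day 3 in both time courses. The intervals leave out the spread between libraries, so this small rise to day 4 was not resolved against it.

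CPM are shares of the miRNA tags of a library, so the amount of miR-211-3p per cell was not measured, and in such bulk samples fewer cells of a type cannot be told apart from less RNA per cell. Scaling by TMM factors moved the log2 folds of day 4 over day 1 by 0.12 in time course 2, to -2.37, and by 0.23 in time course 1, to -1.51.

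**Figure D3:**
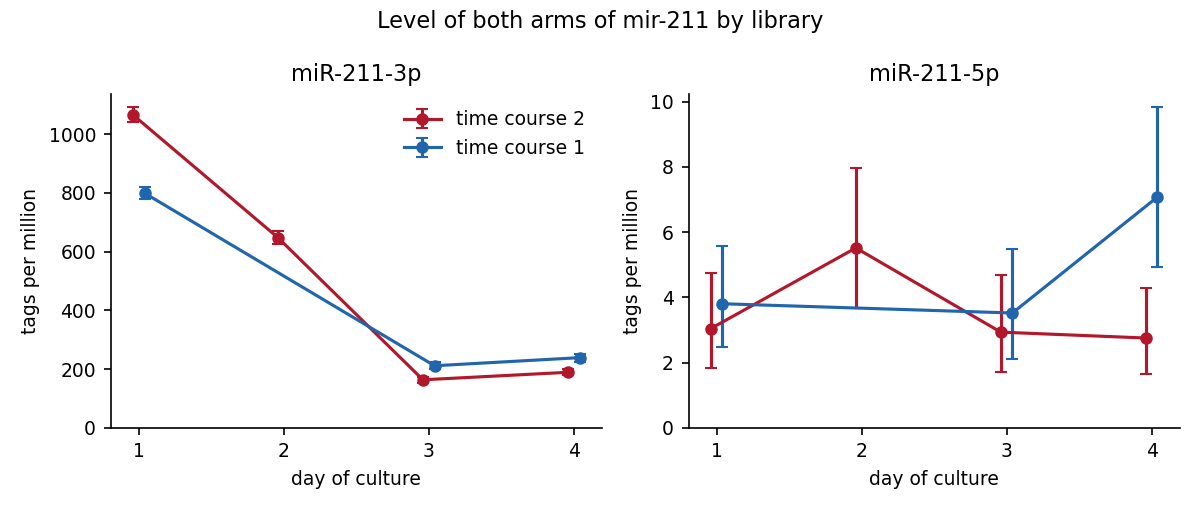
Level in CPM of miR-211-3p (left) and of the 5p arm of mir-211, flanking tags included, titled miR-211-5p (right), by day of culture in each library, with exact Poisson 95% intervals for counting error. miR-211-3p is at 799 and above in both day 1 libraries and at 239 and below on days 3 and 4, while the intervals of the 5p arm overlap on most days.

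The 5p arm, which yields the strand with the miR-204 seed, lay between 2.75 and 7.08 CPM (4.09 ± 1.61, SD, n = 7). On days 1, 2, 3 and 4 of time course 2 it had 3.05, 5.52, 2.93 and 2.75 CPM. On days 1, 3 and 4 of time course 1 it had 3.81, 3.52 and 7.08. The day 4 libraries lay on both sides of the day 1 libraries, and the log2 folds of day 4 over day 1 were -0.15 in time course 2 (95% counting interval -1.06 to 0.77) and 0.90 in time course 1 (0.16 to 1.63). At 17 to 35 tags a library, the log2 folds of miR-211-3p lay outside both counting intervals, while smaller changes could not be resolved. These intervals leave out the spread between libraries. On day 4 the counting intervals of the 5p level, 1.66 to 4.30 CPM (time course 2) and 4.93 to 9.84 (time course 1), did not overlap. Whether the 5p arm fell was thus not tested. The 143 tags that start within 3 nt of the start of miR-211-5p, a restriction chosen after seeing the data, lay between 2.24 and 5.86 CPM, from 13 to 29 tags a library. Their log2 folds of day 4 over day 1 were -0.15 (time course 2, 95% counting interval -1.09 to 0.80) and 0.86 (time course 1, 0.07 to 1.66), so the flanking tags moved these folds little.

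Among the 316 arm products with at least 700 tags in all, miR-211-3p ranked 128 by level. It ranked 3 by its mean log2 fold of day 4 over day 1 and 1 by that of day 3 over day 1. A fall of at least 2-fold in both time courses was seen for 22 of the 316 products to day 4 (6.96%) and for 7 to day 3 (2.22%), with 6 products in both sets and miR-211-3p among them. The median log2 fold of day 4 over day 1 over all 316 products came to -0.09 (time course 2) and -0.16 (time course 1). Since the hairpin was chosen for this contrast, these ranks describe it only.

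**Figure D4:**
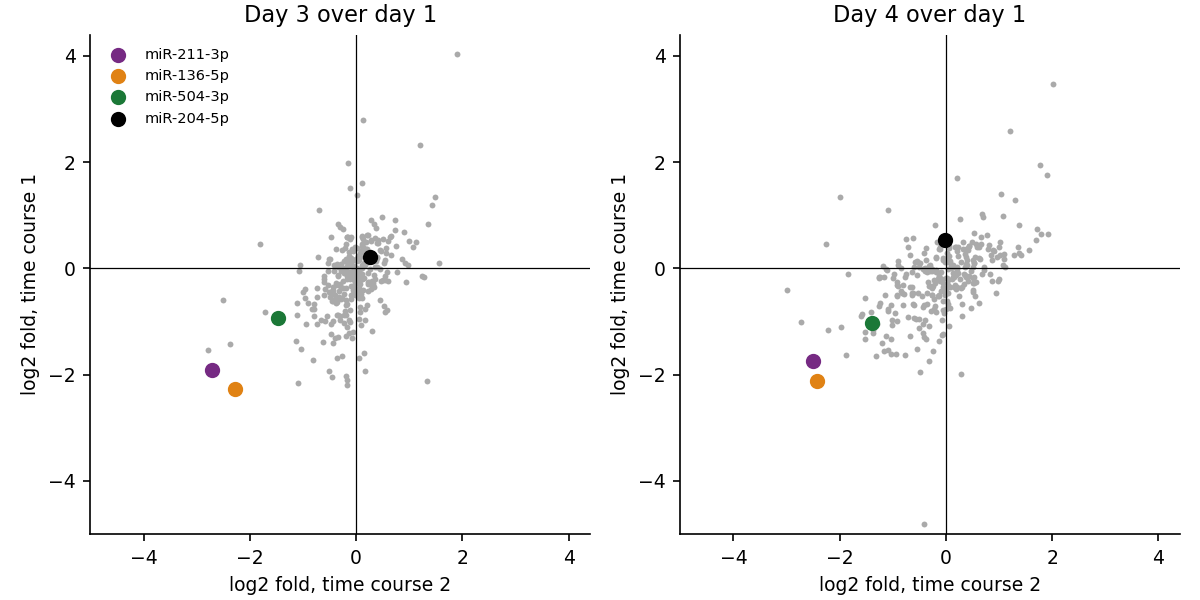
Log2 fold of day 3 over day 1 (left) and of day 4 over day 1 (right) in time course 2 (x axis) and time course 1 (y axis) for 316 arm products, 1 point each. miR-211-3p lies at -2.49 and -1.74 for day 4 over day 1, close to the 5p arm of mir-136 (labelled miR-136-5p), and miR-204-5p lies near the centre.

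The study named 9 products from these libraries as lower at day 4 than at day 1, of which 8 were analysed here and miR-1196 was not. It required a 2-fold change in both time courses and a minimum of tags. By PCR scaled to small nucleolar RNAs, it found only marginal falls for the candidates it measured, and miR-211-3p was not one of them. Because the 9 products were chosen for their lower level at day 4, only the timing of this difference is described. The log2 folds of day 4 over day 1 of the 7 products other than miR-211-3p ran between -1.52 and -1.01 in time course 2 and between -1.53 and -0.96 in time course 1. The value of -0.96, that of miR-128-3p, fell short of 2-fold here. miR-187-3p had log2 folds of day 4 over day 3 of -1.18 in time course 2 and -0.38 in time course 1. miR-99b-3p had -1.50 and -0.83 for the same comparison. Of the 8 products, miR-211-3p was the only one measured above its day 3 level on day 4 in both time courses, by the small margin given above.

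Each product below counts all tags of its hairpin arm. The 5 products whose log2 levels over the 7 libraries were most like those of miR-211-3p were found by Pearson's r. They were miR-504-3p (r = 0.99, Spearman's rho = 0.96), miR-136-5p (0.91 and 0.57), let-7f-3p (0.90 and 0.64), miR-98-3p (0.90 and 0.79) and miR-15b-3p (0.90 and 0.64). The median r over the 315 other products was 0.19, and 4 of them exceeded 0.9. The 7 libraries share their depth and their day with every product, and the values are a description without a test.

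miR-504-3p had 41.7, 35.3, 15.02 and 15.8 CPM on days 1 to 4 of time course 2, and 37.5, 19.5 and 18.2 on days 1, 3 and 4 of time course 1. The 5p arm of mir-136, from the imprinted Dlk1-Dio3 region and named miR-136-5p here, had 61.2, 62.5, 12.6 and 11.3 in time course 2. In time course 1 it had 34.5, 7.04 and 7.89. The study assigned nearly all tags of this hairpin to a variant that starts more than 3 nt from the annotated start. These values may thus mostly be those of that variant. miR-504-3p and miR-136-5p were both lower in all libraries of days 3 and 4 than in those of days 1 and 2. On day 2, sampled in time course 2 only, miR-136-5p differed little in level from day 1 of that time course, whereas miR-211-3p was 1.65-fold lower. The day 1 libraries of time courses 2 and 1 themselves stood at 61.2 and 34.5 CPM for miR-136-5p and at 1065 and 799 for miR-211-3p. With 1 library on day 2, this difference in timing was not resolved against the spread between libraries.

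Markers of other cell types were checked as summed CPM of their hairpins. The cardiomyocyte hairpins (mir-1a, mir-133a, mir-208a, mir-208b and mir-499) were all detected and summed to between 85838 and 105660. The hairpins of blood cells, fibroblasts, epithelium, neurons and hepatocytes each summed to at most 35.8, and no list was at 0. mir-126a of endothelium stood at 919 (time course 2) and 869 (time course 1) on day 4, against 482 and 661 on day 1. The retinal and sensory hairpins mir-96, mir-182 and mir-183, 3 of 3 detected, summed to 11445 (time course 2) and 9573 (time course 1) on day 4, against 9443 and 6334 on day 1. mir-122 of hepatocytes was lower on day 4 in both time courses, at 1.88 (time course 2) and 2.83 (time course 1), against 5.61 and 4.10 on day 1, and so were the neuronal hairpins, at 21.3 and 22.9, against 24.1 and 32.6. The fibroblast hairpins stood at 22.97 (time course 2) and 30.5 (time course 1) on day 4, against 18.3 and 26.003 on day 1. The blood cell hairpins had 25.4 (time course 2) and 17.3 (time course 1) on day 4, against 26.9 and 17.6 on day 1. The epithelial hairpins had 8.26 and 15.4 against 8.82 and 12.9, and the cardiomyocyte hairpins 92835 and 85838 against 92479 and 86710. The endothelial, fibroblast, and retinal and sensory hairpins were thus higher on day 4 within each time course. The blood cell, neuronal and hepatocyte hairpins were lower, those of blood cells only by a small margin, and the other lists differed in direction. mir-122 had only 123 tags in the 7 libraries together, and no counting error was computed for these lists. The part of these lists in the result was not tested.

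The time courses were compared because this contrast had no part in choosing mir-211. With day as a covariate, miR-211-3p had a log2 fold of time course 2 over time course 1 of -0.06 (SE 0.28, edgeR quasi-likelihood test, adjusted p = 0.938). The 5p arm of mir-211 had -0.63 (SE 0.38, edgeR adjusted p = 0.325) and miR-204-5p had -0.29 (edgeR adjusted p = 0.561). Of 725 arm products, 54 passed an adjusted p of 0.05 (7.45%), and neither arm of mir-211 was among them. This count rested on the day 1 libraries: 9 passed without that of time course 1 and 0 without that of time course 2 (edgeR), and 31 passed without the day 4 library of time course 2. Of the products named above, miR-702-3p was higher in time course 2 (1.51, edgeR adjusted p = 0.00286) and miR-20a-5p lower (-0.92, edgeR adjusted p = 0.0359). The sign of the miR-211-3p value turned when the day term was left out (0.28), when low counts were kept (0.032) and when any 1 library of days 3 or 4 was left out.

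The tags of miR-211-3p were few in kind. They are shown with their first and last positions on the hairpin because start and end decide the seed and the length, and capitals again mark bases 2 to 8 of each tag.
miR-211-3p tag 63-83: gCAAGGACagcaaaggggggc
miR-211-3p tag 63-84: gCAAGGACagcaaaggggggcu
miR-211-3p tag 63-82: gCAAGGACagcaaagggggg
miR-211-3p tag 65-83: aAGGACAGcaaaggggggc
miR-211-3p tag 63-81: gCAAGGACagcaaaggggg
miR-211-3p tag 63-85: gCAAGGACagcaaaggggggcuc

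The annotated 21-nt sequence was the leading tag, with 13513 tags or 67.7% of the arm, and it made up between 62.3% and 70.96% of the 3p tags of each library. The next 5 tags had 2227, 1584, 1044, 590 and 411 tags in the order shown. All of these except the tag 65-83 begin at the annotated base and differ only at the 3′ end.

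The annotated start at position 63 held 92.1% ± 1.46 of the 3p tags, and it held between 90.1% and 93.8% in each library (SD, n = 7). A start further 3′, at position 65, held 5.95% ± 1.18, or 1185 tags. This start moves the seed to AGGACAG, which occurred in 0 of 1679 mature mouse miRNAs. The share of the start at position 65 was 4.98%, 5.97%, 4.65% and 5.14% on days 1 to 4 of time course 2, and 7.09%, 7.89% and 5.93% on days 1, 3 and 4 of time course 1. On days 1, 3 and 4 it was lower in time course 2 than in time course 1, a difference that was not tested. The start between them, at position 64, held 214 tags.

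Ends varied more than starts. The annotated end at position 83 held 73.5% ± 2.64 of the 3p tags, and the next base 3′ of it held 12.2% ± 1.67 (SD, n = 7 each). 1 base short of the annotated end lay 7.90% ± 1.51. Tags that ended past the annotated end made up 13.1%, 12.5%, 15.3% and 17.2% on days 1 to 4 of time course 2, and 15.2%, 16.2% and 15.1% on days 1, 3 and 4 of time course 1. The day 4 libraries, at 17.2% and 15.1%, overlapped with the day 1 libraries, at 13.1% and 15.2%.

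**Figure D5:**
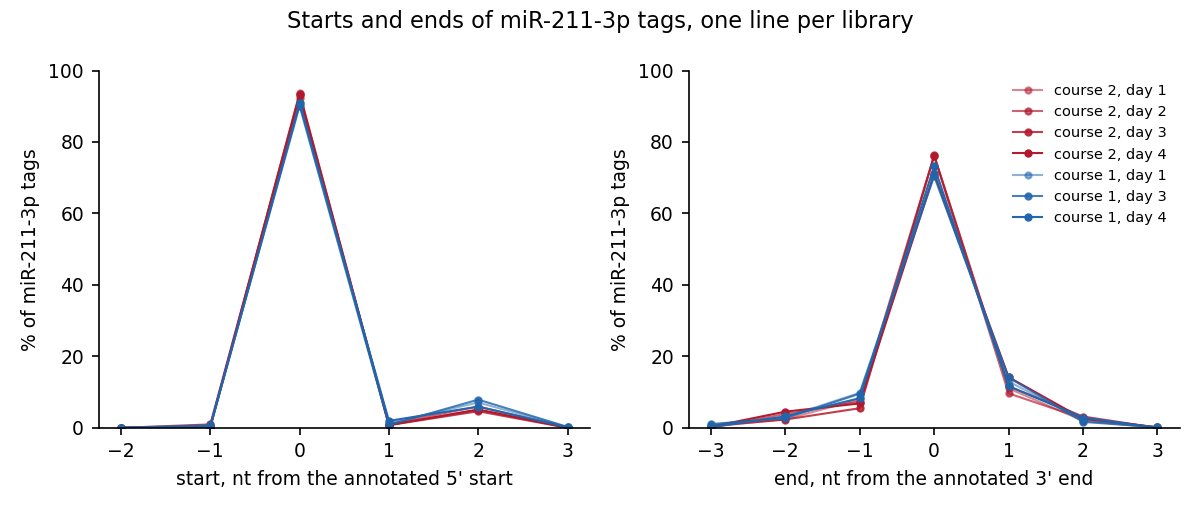
Percentage of miR-211-3p tags that start (left) and end (right) at each distance in nt from the annotated start and end, 1 line for each of the 7 libraries. All lines peak at 0, with a second start near 5.95% at a distance of 2 nt and ends spread to both sides.

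Neither end changed past the test threshold between day 4 and day 1. The log2 odds that a miR-211-3p tag ended past its most frequent end differed by 0.22 (SE 0.29, 95% interval -0.45 to 0.90, limma adjusted p = 0.859). The log2 odds that it started off its most frequent start differed by 0.04 (SE 0.36, 95% interval -0.87 to 0.94, limma adjusted p = 0.993). These fits did not pair the libraries of a time course. With such a block, the limma adjusted p was 0.637 for the end and 0.956 for the start. Of 322 products 0 passed an adjusted p of 0.05 for either share (0.00% by limma), with 18 and 31 at an unadjusted p under 0.05. The composition of the 3p tags thus showed no resolved difference where their number differed by over 3-fold. The start value changed sign without the day 1 library of time course 2 (-0.27) or the day 4 library of time course 1 (-0.21).

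Among the tags starting within 3 nt of the annotated starts, those of the 3p arm were 21 nt long in 68.2% of cases, 22 nt in 11.5%, 20 nt in 9.09% and 19 nt in 8.42%. Those of the 5p arm were longer, with 47.6% of 22 nt and 23.8% of 21 nt. The most frequent length of each arm was that of its annotated product.

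The annotated products can be laid against each other as a duplex. On the loop side, bases 15 to 20 of miR-211-5p face bases 6 to 1 of miR-211-3p with 5 Watson-Crick pairs and 1 G-U wobble. On the base side, bases 1 to 10 of miR-211-5p face bases 19 to 10 of miR-211-3p with 7 Watson-Crick pairs and 3 wobbles, and bases 1 and 2 of the 5p strand are both U facing G. The bases between, 11 to 14 of the 5p strand and 7 to 9 of the 3p strand, were left unaligned because their numbers differ. Both strands keep a 3′ overhang of 2 nt. No folding energy was computed.

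Since miR-211-5p and miR-204-5p differ at position 17 only, the base there assigns a tag to its hairpin. Among the tags that reach it, 908 carried the A of miR-204, 128 the U of miR-211 and 18 a G. The U was seen in 17, 24, 12 and 14 tags on days 1 to 4 of time course 2, and the A in 115, 127, 130 and 128. In time course 1, the U was seen in 18, 16 and 27 tags on days 1, 3 and 4, and the A in 136, 128 and 144. The A outnumbered the U in every library, so most of the tags with the seed UCCCUUU from these hairpins were those of mir-204. The 18 tags with G had 1 mismatch to either hairpin and were divided equally between them.

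miR-204-5p had 19.1, 26.01, 22.96 and 18.8 CPM on days 1 to 4 of time course 2, and 21.4, 24.7 and 30.9 on days 1, 3 and 4 of time course 1. Its log2 fold of day 4 over day 1 came to -0.02 (time course 2) and 0.53 (time course 1). The day 4 libraries lay on both sides of the day 1 libraries, as they did for the 5p arm of mir-211.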

How the data were processed

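Total RNA of HL-1 cultures was enriched for small RNA by electrophoresis, and libraries were made with the SOLiD Small RNA Expression Kit. The authors ran the SOLiD Small RNA Pipeline against the hairpins of miRBase version 16, allowing mismatches. Each deposited file gives raw, unscaled counts of distinct tag sequences, and it holds only tags on miRNA hairpins. Of each library, 9 to 20 lines had no sequence and were left out, and lines with the same sequence were summed. The authors kept base changes only where quality values of the color calls supported them. Because the deposited counts carry no position, the tags were placed again on 1222 hairpins of GENCODE M21 and RefSeq (GRCm38.p6), with at least 16 called bases, at most 2 mismatches and at most 4 bases past the hairpin end. Perfect matches took 92.9% of tags, matches with 1 mismatch 6.76%, and 0.342% found no place. Ties were divided equally, and copies of a miRNA were merged. The placement was tested on simulated tags.

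The members and lists were chosen with earlier results of these data known. The products named are both arms of mir-211 and mir-204, the 5 products with at least 700 tags most correlated with miR-211-3p (log2 CPM, 0.5 tags added), and the lists of the study (lower at day 4, for level; star strand use, for arm shares). Replicate numbers of the labels stand for the time courses. Levels of the time courses were compared with edgeR 4.0.16 (TMM, filterByExpr, quasi-likelihood test, day as covariate, 2 residual degrees of freedom with that of all products shared) and start, end and last-base shares with limma 3.58.1 on log2 odds (0.5 added, products with at least 50 tags in every library), with Benjamini-Hochberg adjustment over all products tested and R 4.3.3. DESeq2 1.42.0 served as an alternative. Alternatives varied the scaling, low-count filter, mismatches, shared tags, pseudocount, minimum and block, and left out each library. The numbers are taken to pair libraries, since the study describes an independent repeat of the time course: deviations from the day means correlated between days by 0.380 to 0.399 for levels (725 products), and by 0.167 to 0.274 for starts, 0.0848 to 0.214 for ends and 0.296 to 0.351 for last bases (322 products). P-values measure the spread between these 7 libraries of 1 line. Python 3.11.15 was used for placement and summaries.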

Additional observations from a re-analysis of the deposited data

Results flagged for a closer look

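The log2 fold of day 4 over day 1 had opposite signs in the time courses for 3 arms of mir-211 and mir-204. These folds were computed with 0.5 tags added to each count, so they differ slightly from those of the counts alone. For the 5p arm of mir-211 the value of time course 2 minus that of time course 1 was -1.03, with 19 and 35 tags on day 4 behind it in time courses 2 and 1. For miR-204-5p this difference was -0.55, and for miR-204-3p, with 33 tags in all libraries together, it was 1.10. With 1 library for each day in a time course, these differences were not tested.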

How the results depend on the processing

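Of the values computed under alternative settings, 95 kept their direction and, where tested, their side of the threshold (counts within 1.5 times), 8 changed sign and 6 were counts that moved further. Untested folds of miR-211-3p, day 4 over day 1, counted as kept when they moved by less than the SD between time courses. The tag minimum, the block and omission of a day 2 or 3 library could move only the p-values of the start and end differences. Leaving out mismatched tags could hardly move the start, end and day 4 over day 1 values of miR-211-3p, since 1 of its 19959 tags had a mismatch. These settings thus say little on how firm those values are. The log2 fold of miR-211-3p, time course 2 over time course 1, was 0.032 without a filter on low counts and 0.28 without the day term, and it ran between -0.39 and 0.10 when 1 library was left out, with a positive sign without either library of day 3 or of day 4. The count of products called by edgeR was 84 of 1155 without the filter and 0 to 61 when 1 library was left out: 9 without the day 1 library of time course 1, 0 without that of time course 2 and 31 without the day 4 library of time course 2. The difference in start use of miR-211-3p ran between -0.27 and 0.35 and that in end use between 0.10 and 0.35 when 1 library was left out. The replicate block pairs libraries of a time course. With it, limma called 4 products for last-base mismatches, where 0 of 322 (29 at an unadjusted p under 0.05) passed without it. Few products had enough such tags. When at least 10 tags of each outcome were required, 30 products remained and 0 passed by limma. miR-211-3p had 0 tags with such a mismatch, so its log2 odds difference of 2.28 reflected only the added constant and its tag number. No conclusion on last-base mismatches is thus drawn from the 4 or the 29. The block changed no other call. The 3p share ran between 98.5% and 98.9% when 1 library was left out. The cause of these changes was not tested. Depth limits the 5p arm, with 17 to 35 tags a library, while 947 tags or more stood behind each value of the 3p arm.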

Other observations

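Outside 3 nt on either side of the annotated starts, the hairpin held 54 tags (0.268% of its tags) of 35 distinct sequences. Of these, 28 tags started at positions 75 to 87, overlapping the 3′ end of miR-211-3p or beyond it, and were spread over all 7 libraries. Another 20 started at positions 1 to 20, on the 5′ side of miR-211-5p, and were seen in 6 libraries. The loop held 4 tags.

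Tags with a mismatch to the hairpin were nearly missing from miR-211-3p. It had 1 such tag of 19959 (0.00501%, 95% Wilson interval 0.000884% to 0.0284%), whereas the median over the 316 products with at least 700 tags was 6.86% and the highest value was 53.0%. 6 of the 316 products, miR-211-3p included, had a share at or under this one. At the last base, 0 of 19959 tags had a mismatch. Mismatched tags had passed the quality filter of the authors before deposit, and its part in these shares was not tested.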
